A study of Mus musculus with 24 samples.

Results

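The transcriptomes of MC38 cells that carried a knockout of Cmas (MC38-CMAS KO) and of MC38 cells that carried a knockout of C1galt1c1, the gene of the chaperone COSMC (MC38-COSMC KO), were compared directly. All genes with at most 4 zeros among the 6 samples, 3 of each line, were tested, which left 22175 of the 52636 genes in the table. The comparison used 6 of the 24 samples of the series, and the other 18 showed where a level of these 2 lines lies among the remaining lines and entered an alternative fit in which all 8 lines shared 1 estimate of the spread. MC38 is a colon carcinoma cell line from C57BL/6 mice. Both lines were made with CRISPR-Cas9, were grown with puromycin and were sampled at passages 4, 5 and 6. The COSMC KO cells were transfected with lipid reagent and selected in bulk on high binding of a GalNAc-specific lectin, so that they are a population and not a clone. How the CMAS KO cells were selected is not given in the sources used here. Of the remaining lines, MC38-MOCK#1 (passages 4, 5 and 6) and MC38-MOCK#2 carry an empty CRISPR-Cas9 construct and MC38-DKO carries both knockouts. The others carry the labels FUT4 and FUT9, or no construct (MC38-WT, grown without puromycin). DKO was also sampled at passages 4, 5 and 6. MOCK#2 and FUT9 were sampled from passage 6 onward, and FUT4 and WT only after passage 6. WT therefore shared no passage with the knockouts, and the part of passage in its levels was not tested. Levels are library-size and TMM normalized read counts per gene, which the authors rounded to whole numbers.

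Both genes act on the glycans at the cell surface, but at different steps. CMAS is the enzyme that couples sialic acid to CMP, and without this activated donor no sialyltransferase can add sialic acid to any glycoprotein or glycolipid. COSMC is the chaperone that the T-synthase C1GALT1 needs to fold, and without T-synthase the O-glycans of mucin-type proteins stop at a single GalNAc, the Tn antigen. The first loss therefore removes a terminal sugar from all classes of glycan and the second truncates 1 class.

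The depth of the 6 libraries was similar. Their normalized counts summed to between 11297360 and 11613273, and the rounding steps of the values gave an estimate of 9751713 to 14369383 reads per library. Vim, the intermediate filament of mesenchymal cells, was at 27307 to 31704 normalized counts in all 6 samples. Of 15 markers of colon epithelium, Epcam, Cdx2 and Car1 were at 0 in every sample and Cdh1 was at 2 or less, so the label of a colon line was not reflected in epithelial genes. The summed level of the blood markers was 50 to 68 in CMAS KO and 53 to 57 in COSMC KO, most of it Cd68.

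The targeted gene Cmas (ENSMUSG00000030282, chr6:142756686-142775714 in GRCm38, plus strand) was at 117, 93 and 126 normalized counts in CMAS KO samples 1 to 3. In COSMC KO it was at 350, 356 and 322. The lines did not overlap, and the level in CMAS KO was 3.06-fold lower (log2 difference -1.61, SE 0.131, adjusted p = 0.00451, limma). The transcript was thus still present in CMAS KO. Among all 24 samples Cmas was lowest in CMAS KO and DKO, where it ranged from 93 to 142, and the other 18 samples ranged from 272 to 416.

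C1galt1c1 (ENSMUSG00000048970, chrX:38630785-38635087, minus strand) did not separate the lines. It was at 215, 181 and 152 in CMAS KO and at 145, 163 and 124 in COSMC KO. These ranges overlap, and the log2 difference of 0.34 (SE 0.161) did not pass the test (adjusted p = 0.426, limma). The mean of 144 ± 19.5 (SD, n = 3) in COSMC KO was below those of MOCK#1 (238 ± 15.9), WT (218 ± 22.7) and DKO (182 ± 21). An insertion or deletion in a coding sequence need not change the level of a transcript. The level of C1galt1c1 therefore does not check the COSMC KO label, while that of Cmas sets CMAS KO apart from COSMC KO. It does not set CMAS KO apart from DKO, where Cmas was equally low, so an exchange of those 2 labels could not be checked.

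**Figure D1:**
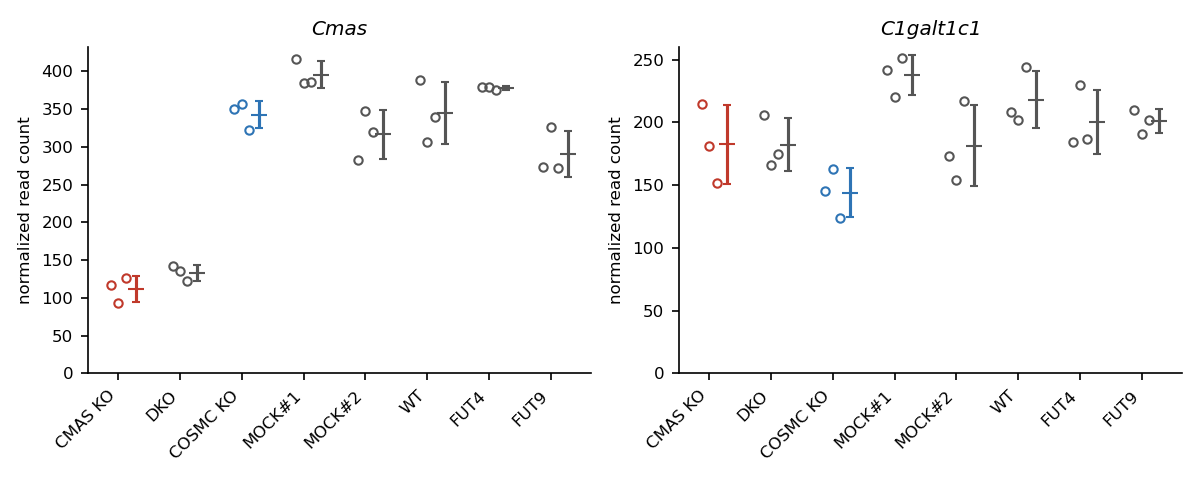
Normalized read counts of Cmas (left) and C1galt1c1 (right) in the 24 samples, by line, with 3 samples per line as circles and the mean ± SD beside them. Cmas lies between 93 and 142 in CMAS KO and DKO and at 272 or more elsewhere, while the C1galt1c1 levels of CMAS KO and COSMC KO overlap.

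Between the knockouts 180 of 22175 genes differed at an adjusted p below 0.05 (differentially expressed genes, DEGs), which is 0.812% of the genes tested. Of these, 94 were higher in CMAS KO (0.424%) and 86 were lower (0.388%). With every sample scaled to the same total the split was 139 higher and 83 lower. In all 180 the samples of the lines did not overlap, which held for 16.8% of all genes tested. Their median absolute log2 difference was 1.2, the smallest was 0.31, and 102 exceeded 1. The coding genes numbered 159. The number of DEGs depended on all 6 libraries: without CMAS KO sample 1, 2 or 3 it was 13, 0 and 1, and without COSMC KO sample 1, 2 or 3 it was 0 each time, with 2605 to 3527 genes at an unadjusted p below 0.05 (limma). When all 8 lines shared 1 estimate of the spread, 425 genes passed, 150 of them among the 180, and 232 to 423 passed without any 1 of the 6 samples. The replicate numbers of the lines share a passage, and with the replicate number as a block 0 genes passed (limma), with 4126 at an unadjusted p below 0.05.

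**Figure D2:**
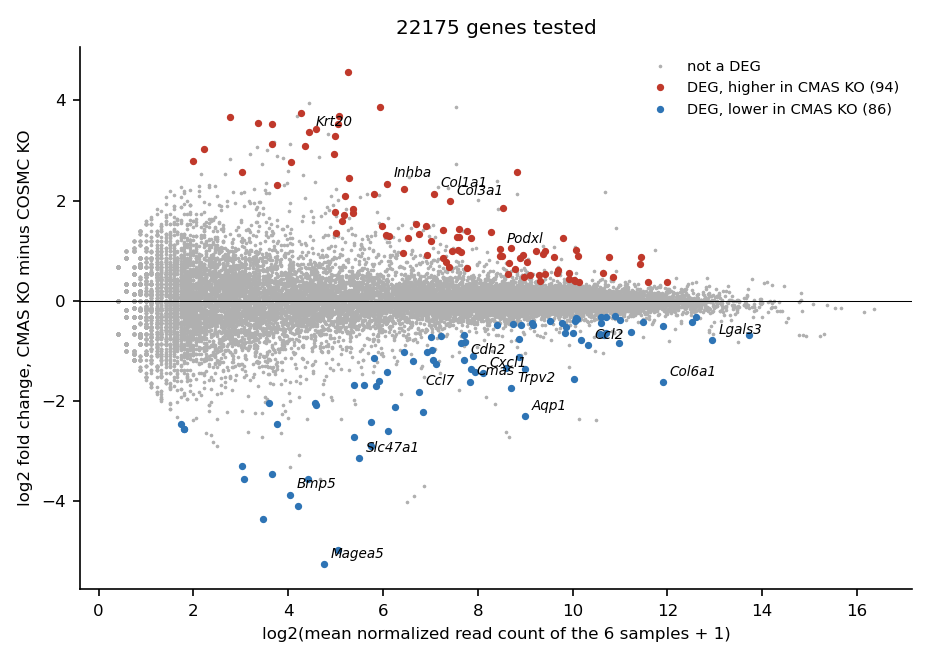
Log2 difference between CMAS KO and COSMC KO (vertical axis, positive where CMAS KO is higher) against the log2 mean level over the 6 samples (horizontal axis), 1 point per gene for 22175 genes. The 94 DEGs higher in CMAS KO (red) and the 86 lower (blue) span low and high levels, and the largest differences, such as those of Magea5 and Krt20, belong to genes near 0 in 1 line.

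Lpar1 was among the 10 largest DEGs toward CMAS KO with a named symbol, no overlap and a mean of at least 50 in the higher line. This receptor for lysophosphatidic acid was at 173, 115 and 137 in CMAS KO and at 33, 33 and 22 in COSMC KO, which is 4.71-fold (log2 difference 2.24, SE 0.230, adjusted p = 0.00836). All 3 CMAS KO samples were above every COSMC KO sample. In other lines Lpar1 was 75.7 ± 25.7 in MOCK#1, 107 ± 37 in WT, 49 ± 9.85 in DKO and 277 ± 65.9 in FUT9 (SD, n = 3), so CMAS KO did not hold the highest level of the series.

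2 secreted regulators of the TGF-beta family were higher in CMAS KO. Bmper, which binds BMPs outside the cell, was at 74, 71 and 51 against 12, 12 and 9 (5.50-fold, log2 difference 2.46, SE 0.256, adjusted p = 0.00852). Inhba, the subunit of activin A, was at 113, 89 and 134 against 30, 14 and 22 (5.06-fold, log2 difference 2.34, SE 0.298, adjusted p = 0.0196). Other lines held higher means, with Bmper at 502 ± 171 in MOCK#2 and Inhba at 466 ± 250 in FUT9 (SD, n = 3). Bmp5, a BMP ligand, went the other way and was at 3, 1 and 0 in CMAS KO and at 41, 29 and 19 in COSMC KO (adjusted p = 0.0322). In the list of TGF-beta and BMP ligands, modulators and targets, these were the 3 that passed of 34 tested, beside 0.812% of all genes. The median of the list was 0.09 against -0.004 for all genes. The intracellular readouts of the pathway in the list did not pass. Id2 was at 463, 723 and 475 against 915, 1106 and 811 (adjusted p = 0.122), and Skil was at 648, 629 and 586 against 474, 493 and 421 (adjusted p = 0.0721).

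Of 40 matrix genes tested, 2 were higher and 2 lower, with a median of 0.01. The share that passed over all genes tested was 0.812%. Col1a1, a chain of the fibrillar collagen I, was at 175, 230 and 255 in CMAS KO and at 52, 47 and 47 in COSMC KO (4.4-fold, log2 difference 2.14, SE 0.165, adjusted p = 0.00419). Col3a1, the chain of the fibrillar collagen III, was at 291, 207 and 316 against 88, 58 and 57 (3.98-fold, log2 difference 1.99, SE 0.222, adjusted p = 0.0127). Elsewhere Col3a1 was 41 ± 21.4 in MOCK#1, 201 ± 105 in WT, 5799 ± 767 in FUT4 and 8032 ± 4722 in MOCK#2 (SD, n = 3). The partner chain Col1a2 was at 76, 59 and 78 against 53, 34 and 62 and did not pass (adjusted p = 0.410). Col5a1, a chain of the fibrillar collagen V named after its values were seen, was at 6010, 6219 and 8695 against 8726, 9479 and 9597, which did not overlap and did not pass (log2 difference -0.43, adjusted p = 0.210). Col6a1, a chain of collagen VI, which forms beaded filaments around cells, was at 2184, 1641 and 1811 in CMAS KO and at 6724, 5817 and 4893 in COSMC KO, 3.09-fold lower (log2 difference -1.63, SE 0.137, adjusted p = 0.00564), but did not pass with all 8 lines in the fit (adjusted p = 0.0727). Its neighbour Col6a2, named after its values were seen, was at 1107, 867 and 856 against 2333, 1966 and 1445, without overlap (adjusted p = 0.0572). The third chain, Col6a3, likewise named afterwards, overlapped at 3382, 3522 and 3890 against 3829, 4292 and 3765 (log2 difference -0.14, adjusted p = 0.474). Col16a1, also named after its values were seen, was at 1481, 1285 and 1600 against 2693, 2650 and 2471 (log2 difference -0.84, adjusted p = 0.00836). Fbln2, a fibulin of elastic and basement membrane matrix that the list did not hold, was at 18, 24 and 46 in CMAS KO and at 124, 113 and 127 in COSMC KO (log2 difference -2.12, SE 0.319, adjusted p = 0.0334).

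Col6a1 was one of the most abundant DEGs, and the start of its gene is shown as the region upstream of that difference. The window runs from 250 bases before to 50 bases after the start in RefSeq for GRCm38.p6, chr10:76725995-76726294 on the minus strand, and the capitals mark an AP-1 type match (TGANTCA, searched on both strands):

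Col6a1: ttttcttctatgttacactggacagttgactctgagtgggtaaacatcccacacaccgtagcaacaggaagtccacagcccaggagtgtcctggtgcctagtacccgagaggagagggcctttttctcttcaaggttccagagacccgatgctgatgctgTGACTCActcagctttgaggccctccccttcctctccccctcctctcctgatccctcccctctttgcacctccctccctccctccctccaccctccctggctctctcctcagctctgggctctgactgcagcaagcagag

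Proteases and adhesion receptors of the matrix also differed. Timp2, an inhibitor of metalloproteinases, was at 1215, 1211 and 1299 in CMAS KO and at 1991, 1979 and 1993 in COSMC KO (1.60-fold lower, SE of the log2 difference 0.0531, adjusted p = 0.00419). Mmp14, the membrane-bound protease that works together with TIMP2, was at 854, 705 and 839 against 1394, 1226 and 1140 (1.57-fold lower, adjusted p = 0.0388). Timp1 was at 1151, 1181 and 1277 against 895, 906 and 890, 1.34-fold higher in CMAS KO (adjusted p = 0.0278). These were the 3 of 26 metalloproteinases and inhibitors that passed, beside 0.812% of all genes tested. The median of the list was -0.11.

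Among 19 integrin subunits 2 were higher in CMAS KO and 1 was lower, with a median of 0.30, while 0.812% of all genes tested passed. Itgb4, the beta chain of the laminin receptor of hemidesmosomes, was at 100, 100 and 95 against 40, 42 and 37 (2.45-fold, log2 difference 1.29, SE 0.147, adjusted p = 0.0132). Itga7, a laminin-binding alpha chain, was at 143, 109 and 137 against 56, 48 and 56 (2.39-fold, log2 difference 1.26, SE 0.160, adjusted p = 0.0196). Neither was highest in CMAS KO, since Itgb4 was 440 ± 53.1 in MOCK#2 and Itga7 was 223 ± 45.8 in FUT4 (SD, n = 3). Itga3, another laminin-binding alpha chain, was at 123, 157 and 151 against 250, 270 and 251 (log2 difference -0.84, SE 0.118, adjusted p = 0.0251). The alpha chain that pairs with Itgb4, Itga6, was at 1194, 1156 and 1019 against 929, 928 and 792, which did not overlap but did not pass (adjusted p = 0.153).

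Genes used to place cells between epithelial and mesenchymal states had no common direction. Of 24 tested, 2 were higher and 1 was lower, while 0.812% of all genes tested passed. On each side of 0 lay 12 of the 24 (median -0.05), while of all 22175 genes tested 10047 were above 0 and 11197 below. Cdh2, N-cadherin, was at 124, 128 and 130 in CMAS KO and at 296, 292 and 289 in COSMC KO, 2.29-fold lower with hardly any spread (log2 difference -1.19, SE 0.0856, adjusted p = 0.00413). Esrp1, an epithelial splicing regulator, was at 309, 257 and 226 against 155, 131 and 118 (1.95-fold, adjusted p = 0.0387) and did not pass with all 8 lines in the fit (adjusted p = 0.0974). Krt20, a keratin of differentiated gut epithelium, was at 44, 41 and 30 against 5, 2 and 2 (adjusted p = 0.0145). It was the one marker of colon epithelium that differed, and the summed level of those markers was 32 to 53 in CMAS KO and 12 to 18 in COSMC KO. The part of other cells in this value was not tested. Outside these lines Krt20 was at 263 to 468 in FUT4 and at 6 or less in the rest. Snai1, Zeb1 and Twist1, transcription factors of the mesenchymal state, did not pass (adjusted p = 0.132, 0.371 and 0.827), and Vim differed by 0.01 on the log2 scale.

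3 chemokines were lower in CMAS KO, and none was higher. Ccl2 and Ccl7 lie side by side on chromosome 11 (chr11:82035571-82037453 and chr11:82045712-82047525 in GRCm38) and both attract monocytes through CCR2. Ccl2 was at 905, 932 and 862 in CMAS KO and at 1559, 1668 and 1780 in COSMC KO, 1.85-fold lower (log2 difference -0.89, SE 0.0678, adjusted p = 0.00419). Ccl7 was at 44, 48 and 49 against 168, 176 and 160, 3.52-fold lower (log2 difference -1.82, SE 0.127, adjusted p = 0.00413). Cxcl1, which attracts neutrophils through CXCR2, was at 124, 135 and 189 against 321, 437 and 457, 2.71-fold lower (log2 difference -1.44, SE 0.193, adjusted p = 0.0221). The lowest COSMC KO sample was above the highest CMAS KO sample for each of the 3. Of 24 chemokines and cytokines tested these 3 passed, beside 0.812% of all genes tested. The median of the list was -0.05. Ccl5, which attracts T cells and was named after its values were seen, was at 26, 12 and 10 in CMAS KO and at 8, 2 and 2 in COSMC KO and did not pass (adjusted p = 0.204).

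The levels of the chemokines in the lines without either knockout were not on 1 side. Ccl2 was 604 ± 273 in MOCK#1 and 1387 ± 448 in WT (SD, n = 3). Cxcl1 was 131 ± 36.5 in MOCK#1 and 291 ± 93.0 in WT, and Ccl7 was 14.7 ± 5.51 and 139 ± 46.0. In all 3 genes MOCK#1 was on the side of CMAS KO, and WT, sampled at later passages, had a mean between those of the knockouts. In the order Ccl2, Ccl7 and Cxcl1, MOCK#2 had 825 ± 181, 39.7 ± 13.6 and 312 ± 42.7. FUT4 had 1551 ± 149, 345 ± 30.6 and 109 ± 38.9, so its Ccl7 was above COSMC KO. FUT9 had 889 ± 61.0, 36.7 ± 16.7 and 101 ± 36.5. DKO, which carries the COSMC knockout too, had 757 ± 26.1, 19.3 ± 2.52 and 181 ± 36.8, nearer to CMAS KO than to COSMC KO in all 3 genes.

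The start of Cxcl1 is shown because its transcript differed and chemokine genes are known targets of NF-kappaB. The window lies at chr5:90890995-90891294 of GRCm38.p6 (RefSeq, plus strand), and the capitals mark a kappaB-type element that matches on both strands in overlapping letters:

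Cxcl1: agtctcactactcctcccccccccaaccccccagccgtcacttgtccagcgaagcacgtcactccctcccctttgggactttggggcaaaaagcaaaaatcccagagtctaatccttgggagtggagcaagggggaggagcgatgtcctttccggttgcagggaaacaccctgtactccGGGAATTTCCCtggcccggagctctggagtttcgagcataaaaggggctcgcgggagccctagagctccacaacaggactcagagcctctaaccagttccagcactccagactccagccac

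Windows on chromosome 18 were left out of the count, and the first window of each gene symbol was kept. That left windows for 126 of the 180 DEGs and 12174 of the genes tested. The kappaB consensus was found in 19 of the 126 (15.1%), in 9.82% of the windows of tested genes and in 8.18% of all 27025 windows kept. The AP-1 type letters were found in 6 of the 126 (4.76%), in 5.68% of the windows of tested genes and in 7.93% of all windows. A match describes the letters only. Ccl2 and Ccl7 had no window.

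In the pathways that the knockouts enter, few transcripts passed the test. Of 12 genes of sialic acid synthesis, activation and removal, Cmas alone passed, beside 0.812% of all genes tested, and the median was 0.02. Gne, which makes the sialic acid precursor ManNAc 6-phosphate, was at 224, 231 and 213 in CMAS KO and at 236, 236 and 226 in COSMC KO (adjusted p = 0.823). Nans, the sialic acid synthase, was at 1098, 1048 and 979 against 915, 894 and 887 (adjusted p = 0.195), and Slc35a1, the Golgi transporter of CMP-sialic acid, was at 375, 429 and 405 against 379, 348 and 309 (adjusted p = 0.377). The Nans samples did not overlap and those of Gne and Slc35a1 did.

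Of 20 sialyltransferases 9 passed the filter on zeros, and 10 were at 0 in all 6 samples. St6galnac6, which adds alpha2,6-linked sialic acid to GalNAc in gangliosides and related glycans, was higher in CMAS KO at 563, 603 and 592 against 431, 396 and 444 (1.38-fold, log2 difference 0.47, SE 0.0734, adjusted p = 0.0381). The remaining 8 did not pass, while 0.812% of all genes tested passed. Of the 9 tested, 8 were above 0, as were 10047 of the 22175 genes tested, and the median of the list was 0.30. At an unadjusted p below 0.05 (limma) there were 4, all higher, while 13.9% of all genes tested were below it. St3gal1, which caps core 1 O-glycans with sialic acid, and St3gal6 were named after their values were seen. St3gal1 was at 217, 161 and 193 against 138, 147 and 130 (adjusted p = 0.194), and St3gal6 was at 167, 180 and 107 against 83, 78 and 79 (adjusted p = 0.111). St3gal2, St3gal3, St3gal4 and St3gal5 overlapped between the lines, with log2 differences of -0.06, 0.15, 0.04 and 0.04. St6gal1, the main alpha2,6-sialyltransferase of N-glycans in many cells, was among those at 0.

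None of the 10 tested genes of core O-glycan synthesis and branching passed the limma test, although 9 of 10 were above 0, the median was 0.34 and 5 were at an unadjusted p below 0.05, which held for 13.9% of all genes tested. Above 0 were 10047 of the 22175 genes tested. None of 12 GalNAc-transferases passed (median 0.08, 1 at an unadjusted p below 0.05). C1galt1, the T-synthase that COSMC folds, was at 363, 394 and 343 in CMAS KO and at 336, 344 and 302 in COSMC KO (adjusted p = 0.474). Gcnt4, a branching enzyme that makes core 2 structures and was named after its values were seen, was at 62, 54 and 72 against 26, 31 and 31, without overlap (log2 difference 1.06, adjusted p = 0.066), and passed with all 8 lines in the fit (adjusted p = 0.00715).

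Among proteins that read or carry these glycans, 1 of 9 galectins and 2 of 11 mucin-type and sialylated surface proteins passed. The share that passed over all genes tested was 0.812%. Lgals3, galectin-3, a lectin that binds galactose-containing glycans, was at 6333, 5759 and 5348 in CMAS KO and at 10744, 9563 and 9691 in COSMC KO, 1.72-fold lower (log2 difference -0.78, SE 0.0768, adjusted p = 0.0076). It was 2313 ± 168 in MOCK#1 and 6479 ± 1162 in WT, so COSMC KO was above both. Lgals1, named after its values were seen, was at 13325, 12296 and 12674 against 16540, 15084 and 16166 (adjusted p = 0.0595). The median of the galectins was -0.02. Podxl, podocalyxin, a heavily sialylated mucin-type surface protein, was at 456, 482 and 484 against 207, 249 and 243, 2.04-fold higher in CMAS KO (log2 difference 1.03, SE 0.0935, adjusted p = 0.0068). Cd34, a sialomucin of the same family, was at 5102, 4896 and 5052 against 7262, 6506 and 6481, 1.34-fold lower (log2 difference -0.43, SE 0.0592, adjusted p = 0.0247). The median of the surface proteins was 0.24. Podxl was 462 ± 39.8 in MOCK#1 and 246 ± 22.7 in WT, near the level of CMAS KO and of COSMC KO respectively.

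**Figure D3:**
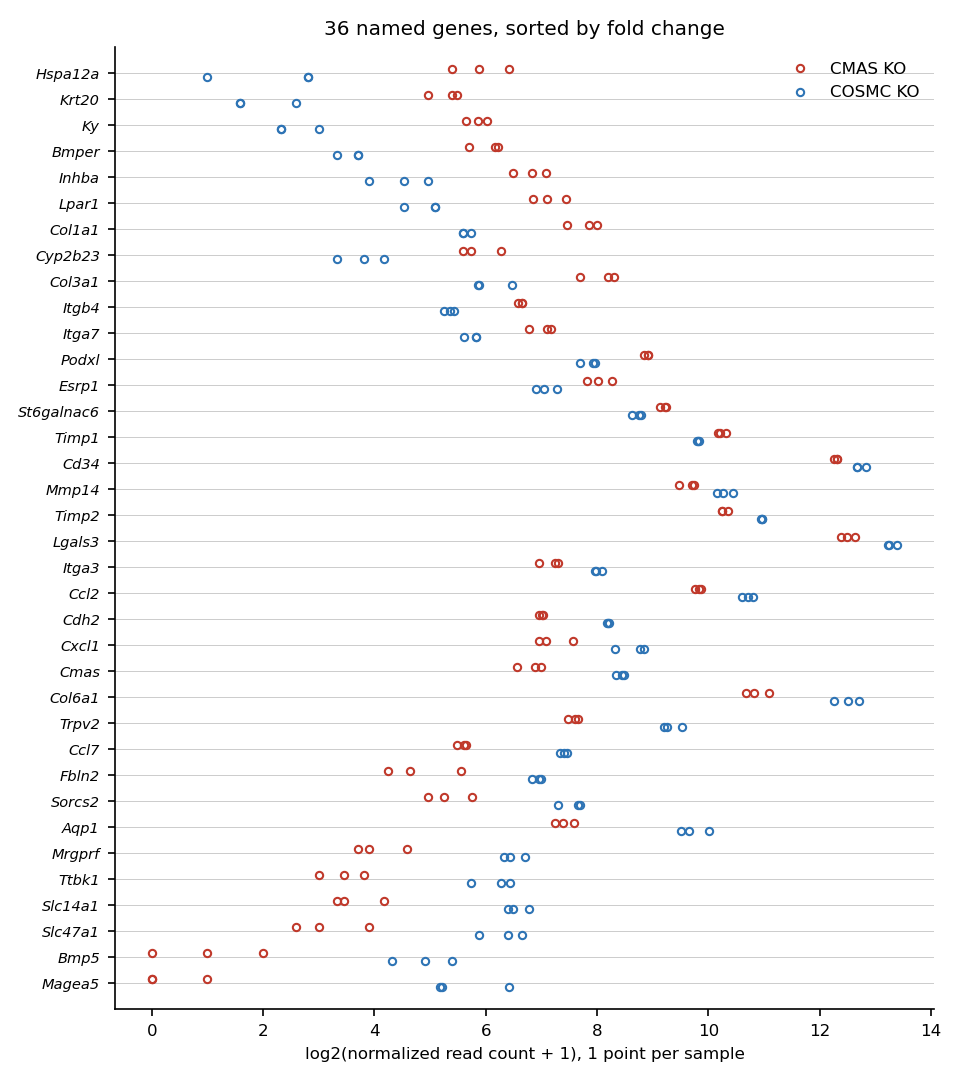
Level of 36 named genes in each of the 6 samples, as log2(normalized read count + 1), with CMAS KO in red and COSMC KO in blue, sorted from the most positive to the most negative difference. In each gene the 3 samples of the lines lie apart, and the genes with the largest differences have levels near 0 in 1 line.

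Hspa12a, a distant member of the HSP70 family, was at 58, 85 and 41 against 6, 1 and 6 (log2 difference 3.70, SE 0.550, adjusted p = 0.0322). CMAS KO held the highest mean of Hspa12a among the 8 lines. Ky, a muscle cytoskeleton protein, was at 57, 49 and 64 against 7, 4 and 4 (log2 difference 3.29, SE 0.305, adjusted p = 0.00704). Ky was higher in MOCK#2, at 311 ± 49.9 (SD, n = 3). Cyp2b23, a cytochrome P450, was at 47, 76 and 52 against 13, 17 and 9 (log2 difference 2.09, SE 0.311, adjusted p = 0.0322) and did not pass with all 8 lines in the fit (adjusted p = 0.0783). Its mean was at most 5.0 in each of the other 6 lines.

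The 10 largest DEGs toward COSMC KO by the same rule include genes outside the lists. Aqp1, the water channel aquaporin-1, was at 191, 167 and 151 in CMAS KO and at 1025, 800 and 730 in COSMC KO, 4.97-fold lower (log2 difference -2.31, SE 0.143, adjusted p = 0.00279). Trpv2, a calcium-permeable channel, was at 202, 178 and 193 against 738, 609 and 587, 3.35-fold lower (log2 difference -1.74, SE 0.107, adjusted p = 0.00279). For both genes COSMC KO held the highest mean of the 8 lines. Slc47a1, an exporter of organic cations, was at 5, 14 and 7 against 99, 83 and 58 (log2 difference -3.14, SE 0.388, adjusted p = 0.0189). Slc14a1, a urea transporter, was at 17, 9 and 10 against 109, 83 and 89 (log2 difference -2.90, SE 0.281, adjusted p = 0.00755).

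Magea5, a cancer-testis gene on chromosome X, was at 0, 0 and 1 in CMAS KO and at 85, 36 and 35 in COSMC KO (log2 difference -5.27 after adding 1, SE 0.499, adjusted p = 0.00719). It was 66.0 ± 12.3 in WT and 0 in all 3 samples of MOCK#1 and of DKO. The presence of its transcript in COSMC KO is thus shared with WT. Ttbk1, a kinase of tau, was at 7, 10 and 13 against 52, 86 and 76 (log2 difference -2.72, SE 0.310, adjusted p = 0.0132). Mrgprf, an orphan G protein-coupled receptor, was at 23, 12 and 14 against 86, 79 and 103 (log2 difference -2.42, SE 0.275, adjusted p = 0.0132), and Sorcs2, a sortilin-family receptor, was at 37, 30 and 53 against 156, 202 and 205 (log2 difference -2.23, SE 0.228, adjusted p = 0.00836). All of these separated without overlap.

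2 genes with an all-zero line were named after their values were seen. Asb16 was at 11, 12 and 12 in CMAS KO and at 0 in all 3 COSMC KO samples, at least 3.89-fold higher against a floor of 3 normalized counts per library. Zfp385c was at 0 in all 3 CMAS KO samples and at 23, 14 and 23 in COSMC KO, at least 6.67-fold lower against the same floor. Efcab6, also named after its values were seen, had the smallest adjusted p of all genes at 0.0015, with 611, 564 and 566 in CMAS KO and 161, 174 and 147 in COSMC KO (3.60-fold).

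Immune gene lists held no DEG other than the chemokines. In the list of MHC class I and peptide loading none of 24 tested genes passed (limma; median 0.08, 3 at an unadjusted p below 0.05). B2m, the light chain of MHC class I, was at 1897, 1681 and 1462 in CMAS KO and at 1710, 1601 and 1434 in COSMC KO (adjusted p = 0.815). H2-D1 was at 3931, 3557 and 3671 against 3863, 3516 and 3318 (adjusted p = 0.772), and H2-K1 was at 4652, 3971 and 4477 against 4622, 4086 and 3730 (adjusted p = 0.793). The classical heavy chains thus overlapped in every case. Cd274, PD-L1, was at 144, 119 and 117 against 130, 109 and 135 (adjusted p = 0.988), and none of 17 checkpoint and NK or T cell ligands passed (median 0.16, 3 at an unadjusted p below 0.05). For comparison with both lists, 13.9% of all genes tested were at an unadjusted p below 0.05 (limma).

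None of 52 interferon-stimulated genes passed the limma test, and the median was 0.21, with 36 above 0. Over all genes tested 10047 of 22175 were above 0. At an unadjusted p below 0.05 there were 7 higher and 1 lower, a share near the 13.9% of all genes tested. The spread within a line was wide in this list. Oasl1, named after its values were seen, was at 1011, 498 and 209 in CMAS KO and at 181, 87 and 45 in COSMC KO, without overlap, and a log2 difference of 2.39 with an SE of 0.637 did not pass (adjusted p = 0.153). Ifit1, likewise named afterwards, was at 133, 55 and 52 against 36, 15 and 7 (adjusted p = 0.166). In both genes the sample of passage 4 was the highest of each line, so that passage moved with the level within the lines.

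Lists of proliferation, signalling and stress held no DEG. None was found by limma among 38 genes of the cell cycle and replication (median -0.02), 36 MAPK feedback and immediate early genes (median -0.13), 24 Wnt targets and modulators (median 0.00), 30 genes of glycolysis and hypoxia (median 0.12), 30 of ER stress and amino acid response (median 0.14) or 25 p53 targets (median -0.02). At an unadjusted p below 0.05 these lists held, in the same order, 2 higher and 5 lower, 2 and 2, 4 and 4, 6 and 2, 8 and 1, and 2 and 4 genes. Mki67, the proliferation marker, was at 8491, 8076 and 7954 in CMAS KO and at 9008, 8852 and 8602 in COSMC KO (log2 difference -0.11, SE 0.0492, adjusted p = 0.384). Its samples did not overlap, but the difference was small. Of 32 genes of cholesterol and fatty acid synthesis 1 passed and was higher in CMAS KO, beside 0.812% of all genes tested, and the median was 0.11. This list held 10 higher and 1 lower at an unadjusted p below 0.05 (limma). The share of all genes tested below that threshold was 13.9%.

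**Figure D4:**
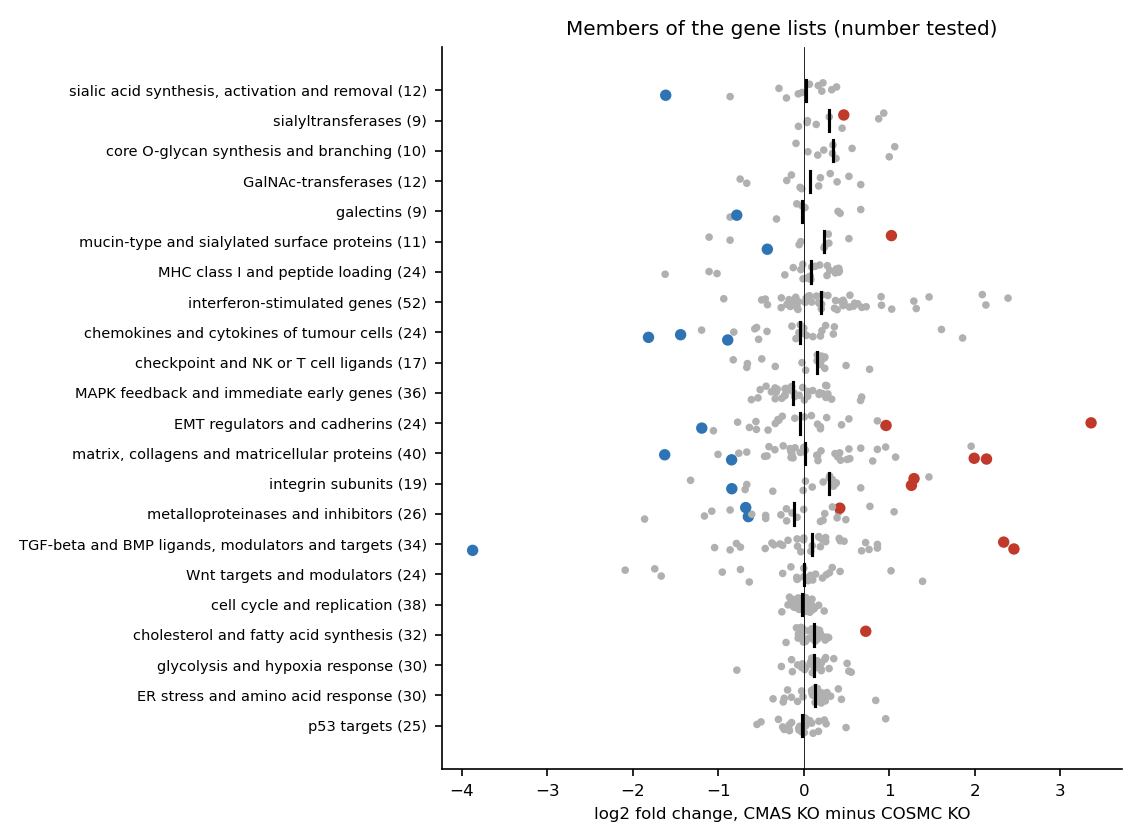
Log2 difference between CMAS KO and COSMC KO of each tested member of 22 gene lists (1 point per gene, number tested in parentheses), with DEGs in red where higher and blue where lower in CMAS KO, and the median of each list as a black bar. The medians lie between -0.13 and 0.34, and 11 lists hold at least 1 DEG.

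The DEGs were compared with the levels in the other lines. Of the 86 DEGs lower in CMAS KO, the mean of MOCK#1 lay nearer to CMAS KO in 72 and nearer to COSMC KO in 14, and the mean of DKO lay nearer to CMAS KO in 75 and to COSMC KO in 11. The mean of WT was divided, with 46 nearer to CMAS KO and 40 nearer to COSMC KO. Of the 94 DEGs higher in CMAS KO, 44 were nearer to CMAS KO in MOCK#1, 51 in DKO and 53 in WT. Over all genes tested 50.8% were nearer to CMAS KO in MOCK#1, 51.1% in WT and 51.5% in DKO. These counts are descriptions with no test, and the WT samples came from later passages than those of the knockouts, MOCK#1 and DKO.

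Whole chromosomes differed slightly between the lines. Among genes with a mean of at least 10, the median log2 difference was -0.14 on chromosome 10, where 22% of 650 genes were above 0, and -0.10 on chromosome 8, where 27.5% of 759 were above 0. It was 0.13 on chromosome 2, where 75.7% of 1109 genes were above 0, and 0.12 on chromosome 4, where 71.3% of 862 were above 0. Among chromosomes with at least 20 such genes, which leaves out Y, chromosome 10 also held the largest share of DEGs. It held 20 of 1080 genes tested or 1.85%, of which 6 were higher and 14 lower in CMAS KO.

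The chromosome medians were also taken sample by sample, relative to the mean of all 24 samples. On chromosome 10 they were 0.069, 0.060 and 0.052 in CMAS KO and 0.197, 0.177 and 0.189 in COSMC KO, while MOCK#1 had -0.129, -0.134 and -0.104. On chromosome 2 they were 0.017, 0.018 and 0.017 in CMAS KO and -0.120, -0.122 and -0.117 in COSMC KO. On 10 of 20 chromosomes the samples of the lines did not overlap. Col6a1, Col6a2 and Itga7 lie on chromosome 10, and Lpar1 and Col16a1 on chromosome 4, with differences many times those medians and in both directions. Myl6, a myosin light chain, on chromosome 10 and named after its values were seen, was at 1979, 1907 and 1834 against 3097, 2767 and 2947 (log2 difference -0.62, adjusted p = 0.0076). Gja1, connexin 43, on the same chromosome and likewise named afterwards, had a difference of -0.31 (1648, 1685 and 1738 against 2074, 2064 and 2146; adjusted p = 0.0456), nearer to the median of the chromosome. The chromosome and the knockout cannot be told apart in such genes.

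**Figure D5:**
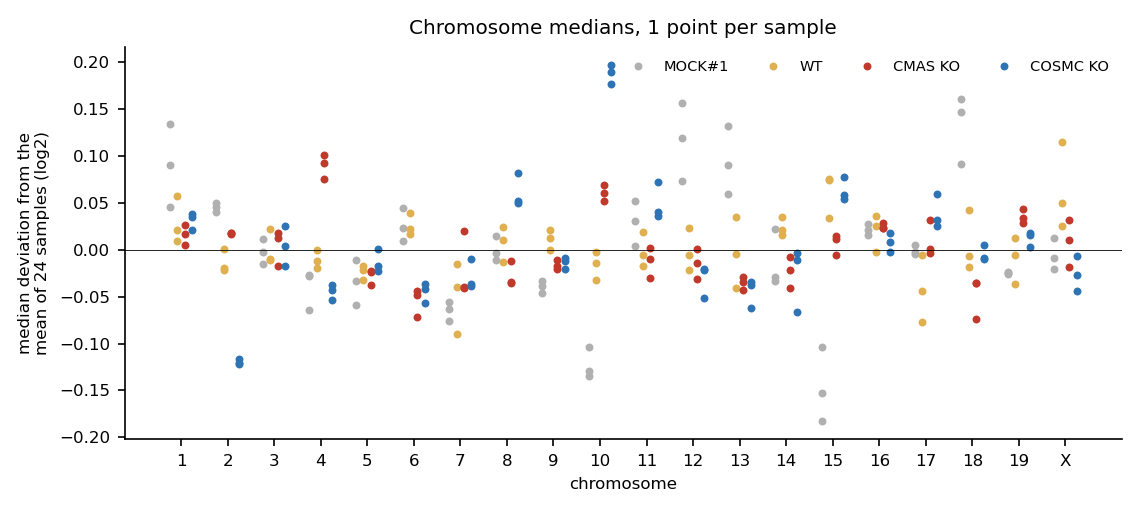
Median deviation of the genes of each chromosome from the mean of all 24 samples (log2), 1 point per sample, for genes with a mean of at least 10 in the 6 samples compared. On chromosomes 2, 4, 8 and 10 the 3 CMAS KO samples (red) and the 3 COSMC KO samples (blue) form separate groups, with those of MOCK#1 (grey) and WT (yellow) beside them.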

How the data were processed

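Poly(A) RNA of the MC38 lines had been sequenced in single reads. Per the labels and methods, the authors mapped reads to GRCm38 with HISAT2 2.0.4, processed alignments with SAMtools 0.1.19, counted genes with featureCounts (Subread 1.5.0-p3) and normalized counts with edgeR 3.18.1. The deposited values are these library-size and TMM normalized counts rounded to whole numbers, treated here as a score, since count models need raw counts; the authors' edgeR test was therefore not used. Gene lengths (another unit) were deposited too and not used.

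Differences were tested on log2(value + 1) with limma 3.58.1 (lmFit, eBayes with trend, two-sided) in R 4.3.3, with Benjamini-Hochberg adjustment over 22175 genes and a threshold of 0.05; fold changes on this scale understate those of low genes. An exact permutation test of 3 against 3 could not go below 0.1. Samples of a line come from separate passages, so p-values measure the spread between passages of 1 population. Depth was estimated from the rounding steps with Python 3.11.15; a first estimator failed on simulated factors below 1 and was replaced after its values had been seen. The depth estimate and the limma fit were tested on simulated data.

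Named genes were Cmas and C1galt1c1, the 10 largest DEGs per direction with a named symbol, no overlap and a mean of at least 50 in the higher line, the 3 largest DEGs of each list, and a set of preset genes; a few of these are not reported here. The comparison and the lists were chosen with earlier results of these data known. Alternatives changed the pseudocount (0.5, 4), filter, scaling, samples in the fit, trend, threshold and replicate block, and left out each sample. Sequences are from RefSeq (GRCm38.p6).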

Additional observations from a re-analysis of the deposited data

How the results depend on the processing

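The direction of the 44 genes named by rule beside the targets was the same in 918 of 924 combinations of gene and alternative, and the 6 exceptions were in genes that never passed. Adjusted p-values without 1 sample were 0.461 to 0.981 for B2m and 0.861 to 0.926 for Cd274, and with all 8 lines in the fit the reversed values were 0.993 for B2m and 0.958 and 0.963 for Cd274. The 180 DEGs (94 higher, 86 lower) became 334 (186 and 148) among genes with a mean of at least 10, 425 (244 and 181) with all 8 lines in the fit, 118 (50 and 68) without a trend, and 102 (54 and 48) with a log2 difference above 1. Scaling to the same total gave 222 (139 and 83) and median-of-ratios scaling 244 (138 and 106); these moved the median difference of all genes to 0.02 at most. Pseudocounts of 0.5 and 4 gave 169 and 202, and no filter gave 198. Without 1 sample the count ranged from 0 to 13 (0 to 5 higher, 0 to 8 lower), and with all 8 lines in the fit, an alternative chosen after seeing the data, it was 261 without CMAS KO sample 1 (146 higher), 232 without sample 2, 423 without sample 3 (242 and 181), 342 without COSMC KO sample 1 (201 and 141), 257 without sample 2 and 255 without sample 3 (135 lower). With fewer samples fewer residual degrees of freedom remain. Among single genes and counts per list, 1357 values were unchanged, which means direction and call for a gene. For a count per list it means equal, also at 0, or within 1.5 times. Of the 924 combinations of gene and alternative, 303 lost the call. Among the counts per list, 182 moved by over 1.5 times or to or from 0. The targeted gene Cmas had adjusted p-values of 0.0689 to 0.144 without 1 sample, and of 9.55e-08 to 8.7e-07 with all 8 lines as well.

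With the replicate number as a block, limma found 0 DEGs (0 higher, 0 lower), 4126 genes were at an unadjusted p below 0.05, and Cmas had an adjusted p of 0.127. Same-numbered samples, which also share a passage, correlated at 0.186, 0.0859 and 0.217 in their deviations over 13461 genes, so not every pair exceeded 0.1 and the numbers were not taken as pairs. Each sample did correlate best with its own number, a hint from the data.

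The values hold no raw counts, so counting error is not known exactly. Genes near 0 in 1 line have differences that depend on the added count. 3 passages of 1 population per genotype cannot separate the knockout from other differences between the populations.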

Other observations

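The following genes were named after their values were seen and belong to no list, so that a direction they share is a product of the choice and not a result. Sema3a, a secreted semaphorin, was at 246, 206 and 248 in CMAS KO and at 139, 116 and 99 in COSMC KO (log2 difference 0.99, adjusted p = 0.034, limma). Slit2, the ligand of ROBO receptors, was at 757, 719 and 733 against 552, 488 and 502 (log2 difference 0.52, adjusted p = 0.0231), and did not pass with all 8 lines in the fit (adjusted p = 0.118). Unc5b, a netrin receptor, was at 1325, 1160 and 1272 against 706, 516 and 397 (log2 difference 1.25, adjusted p = 0.0322). Neo1, neogenin, was at 2044, 2151 and 2281 against 1484, 1601 and 1599 (log2 difference 0.47, adjusted p = 0.0222), and Plxnd1, a semaphorin receptor, was at 1267, 1223 and 1308 against 960, 1036 and 944 (log2 difference 0.37, adjusted p = 0.0496). Plxnd1 did not pass with all 8 lines in the fit either (adjusted p = 0.111).

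Sulf2, which removes sulfate from heparan sulfate outside the cell, was at 338, 238 and 278 against 770, 673 and 749 (log2 difference -1.37, adjusted p = 0.00719), and did not pass with all 8 lines in the fit (adjusted p = 0.282). Gxylt2, which adds xylose to O-glucose on Notch-type repeats, was at 1135, 1165 and 1265 against 2003, 1825 and 1792 (log2 difference -0.66, adjusted p = 0.00893). B3glct, which extends O-fucose with glucose, was at 511, 455 and 467 against 653, 665 and 629 (log2 difference -0.44, adjusted p = 0.0416). Sulf2 was 707 ± 173 in WT and 123 ± 71.6 in MOCK#1 (SD, n = 3), on either side of the level of CMAS KO.

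Igf2bp3, an RNA-binding protein of embryonic tissue and tumours, was at 162, 150 and 146 against 61, 59 and 39 (log2 difference 1.53, adjusted p = 0.019), and its relative Igf2bp2 was at 576, 515 and 517 against 364, 358 and 316 (log2 difference 0.63, adjusted p = 0.0242). Lin28b, an RNA-binding protein that blocks let-7 maturation, was at 6, 11 and 8 in CMAS KO and at 39, 44 and 31 in COSMC KO (log2 difference -2.08, adjusted p = 0.0322).

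Mid1, which encodes a ubiquitin ligase, was at 1940, 2138 and 2766 against 1174, 1276 and 1224 (log2 difference 0.88, adjusted p = 0.0247). Mid1-ps1, Gm47283 and Gm21887 passed in the same direction, with log2 differences of 0.98, 0.90 and 0.88, and Gm21887 did not pass with all 8 lines in the fit (adjusted p = 0.0502). These genes at the ends of the sex chromosomes carry near-identical sequence, so reads could be split among them and the 4 are not independent. Zfp985, Zfp978 and Zfp979, zinc finger genes of 1 cluster on chromosome 4, were higher in CMAS KO by 1.44, 0.91 and 0.89 on the log2 scale, and the same uncertainty holds for them.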
